A study of Homo sapiens with 6 samples.

Results

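The loci described here carry names that begin with XLOC_l2, a series of identifiers for transcripts of uncertain coding potential. They were found by that name among the probes for cell RNA of an Agilent expression array, which gave 2634 probes of 50599, and 1 of them had no usable spot on some array, so 2633 could be measured. The probes belong to 1472 loci, of which 905 had 1 probe, 278 had 2 and 289 had more, up to 13 for XLOC_l2_013873. The array's own descriptions call 1800 of the 2633 probes long intergenic noncoding RNA, and the words coding potential stand in 0 of them, so the coding status of these transcripts was not examined here. Each value is the fluorescence of a 60-base probe, and probe positions are on the human build hg19. No hg19 annotation of exons or untranslated regions was used here.

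Transcripts of this kind were assembled from RNA sequencing of human tissues and cell lines and were set apart from long noncoding RNAs because part of their sequence resembled a coding gene. Many such loci are copies of coding genes, pseudogenes or stretches of repeats, so a probe for one of them can hold bases that another transcript also carries. RNA made by polymerase II receives a 7-methylguanosine cap, which some small nuclear RNAs later carry in a trimethylated form, and a decapping enzyme removes the cap and opens the 5′ end to exonucleases. NUDT16 encodes such a decapping enzyme.

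MOLT-4, a cell line from a T-cell acute lymphoblastic leukaemia, was transfected either with NUDT16 or with an empty vector (mock), and each group had 3 arrays. Both groups share the line, and 20 µg of total RNA went into each immunoprecipitation of capped RNA (m3G, trimethylguanosine, or m7G, 7-methylguanosine), whose eluate was labelled with Cy3. The question put by this design is which capped transcripts gain or lose signal when NUDT16 is supplied. The labels do not say whether the transfected cells were a pool or 1 clone, when they were harvested, or whether replicates were separate cultures, so p-values measure the spread between these samples, which may be technical. Input RNA, taken ahead of the immunoprecipitation, is not analysed here, and fewer RNA molecules and fewer capped ones cannot be told apart.

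The share of spots well above background ran from 39.3% to 51.1% on the mock arrays and was 42.3%, 14.6% and 52.0% on NUDT16 replicates 1, 2 and 3. The T-lineage markers of the line were present, with 12 of 18 well above background on all 6 arrays and 0 absent from all of them. Of markers of other lineages, 1 of 5 for B cells, 0 of 4 for myeloid cells, 0 of 3 for erythroid cells and 1 of 5 for epithelial cells reached all 6 arrays. Both probes named NUDT16 were well above background on 0 arrays and check nothing, while 1 of 2 probes named for its pseudogene NUDT16P1 was the 1 probe of 17765 that passed the test (limma, Benjamini-Hochberg adjusted p = 0.00155). It was well above background on the 3 NUDT16 arrays and 0 mock arrays, so only a bound can be given. Taking for each mock array the dimmest value that any detected probe had there, it was at least 31.7-fold higher. It entered the test through the NUDT16 arrays alone, the arrays where it is high, so its p-value is not separate support. The other NUDT16P1 probe was well above background on 0 arrays. Values below are log2 signals minus the array's 75th percentile over the 6582 probes that were well above background on all 6 arrays, called scaled signals, unless stated as unscaled.

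Members whose probe shares a run of bases with a probe of another name are shown first, because their signal may not come from the named locus alone. Binding of the partner's RNA to a member's probe was not tested. Each line gives a probe 5′ to 3′, and the capitals mark the longest run of bases that it shares with the probe on the next line.
XLOC_l2_013808: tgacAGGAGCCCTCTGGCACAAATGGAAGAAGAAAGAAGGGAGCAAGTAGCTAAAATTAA
SEPT7P2: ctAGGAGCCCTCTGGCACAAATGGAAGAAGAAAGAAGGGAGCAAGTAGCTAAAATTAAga
XLOC_l2_013594: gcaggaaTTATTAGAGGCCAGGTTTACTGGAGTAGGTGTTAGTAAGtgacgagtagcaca
TLK2: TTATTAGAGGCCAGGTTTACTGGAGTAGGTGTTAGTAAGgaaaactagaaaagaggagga
XLOC_l2_002910: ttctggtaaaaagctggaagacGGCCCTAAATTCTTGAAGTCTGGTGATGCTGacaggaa
EEF1A1: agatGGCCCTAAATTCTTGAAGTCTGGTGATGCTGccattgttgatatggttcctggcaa
XLOC_l2_012953: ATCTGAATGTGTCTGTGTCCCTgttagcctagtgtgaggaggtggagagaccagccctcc
HLA-J: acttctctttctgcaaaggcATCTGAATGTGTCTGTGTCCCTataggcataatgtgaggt
XLOC_l2_015885: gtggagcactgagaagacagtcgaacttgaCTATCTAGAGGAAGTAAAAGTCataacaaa
RN18S1: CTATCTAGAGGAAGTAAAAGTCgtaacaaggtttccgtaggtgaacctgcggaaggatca
XLOC_l2_014830: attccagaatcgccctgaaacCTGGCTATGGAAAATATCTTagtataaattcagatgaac
FRG1: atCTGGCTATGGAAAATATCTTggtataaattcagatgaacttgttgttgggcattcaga

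The probe of XLOC_l2_013808 lies at chr7:45767859-45767918 on the minus strand, inside the span of the probe for SEPT7P2, a septin 7 pseudogene, with which it shares 56 bases. XLOC_l2_013594, at chr7:128173739-128231917 on the plus strand, shares 39 bases with TLK2, a kinase gene on chromosome 17. XLOC_l2_002910, at chr12:17144740-17144925, shares 31 bases with EEF1A1, which encodes a translation elongation factor and lies on chromosome 6. The probe of XLOC_l2_012953, at chr6:31349699-31349758, shares 22 bases with HLA-J, a class I histocompatibility pseudogene. XLOC_l2_015885, at chrY:10036620-10036679, shares 22 bases with the probe for 18S ribosomal RNA. XLOC_l2_014830, at chr20:29624086-29625925, shares 20 bases with FRG1 on chromosome 4.

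A run of at least 20 bases in common with a probe of another name was found for 102 of 2633 member probes (3.87%). The same search gave 96 of 9198 probes (1.04%) for long intergenic noncoding RNAs with numbered XLOC names and 376 of 25215 probes (1.49%) for RefSeq messenger RNAs. For 91 members the partner was a probe outside the family, and 16 members among the 91 (17.6%) reached all 6 arrays, beside 117 of the 2542 members without such a partner (4.60%). Matching was on the probe's strand and over exact runs, so shorter or imperfect likeness is not counted.

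Where both probes were well above background on all 6 arrays, a member and its partner moved together from array to array. Across 15 such pairs, from 13 members, the correlation of scaled signals over the 6 arrays ran from 0.754 to 0.997 with a median of 0.979. Without NUDT16 replicate 2 it ran from 0.823 to 1.0 over 5 arrays. The points of a pair share their arrays, and these correlations are descriptions. Unrelated probes were not compared in this way, so a high correlation is not by itself a mark of shared bases. Probes of the same locus that share only 5 to 8 bases correlated at 0.386 to 0.914 over the 6 arrays. The lowest of the 15 belonged to XLOC_l2_001332 and LOC731275.

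XLOC_l2_013808 gave scaled signals of -3.12, 0.34 and -0.39 on mock replicates 1, 2 and 3 and -3.43, -2.43 and -0.88 on the NUDT16 arrays, and the SEPT7P2 probe gave -2.98, 0.45 and -0.32 against -3.40, -2.84 and -0.86. Both probes were lowest on replicate 1 of either group, highest on mock replicate 2, and overlapped between groups. The difference between groups was -1.19 for the member and -1.42 for SEPT7P2. For XLOC_l2_002910 the mock arrays gave 3.01, 2.92 and 3.21 and the NUDT16 arrays 2.53, 1.61 and 3.11, and the EEF1A1 probe gave 3.89, 3.90 and 4.21 against 3.44, 2.84 and 4.08. NUDT16 replicate 2 was the lowest array for both, and the groups overlapped. The differences were -0.63 and -0.55. XLOC_l2_012953 went the other way with its partner: 1.28, 0.34 and 0.43 became 1.91, 0.75 and 0.68 with NUDT16, a difference of 0.43, beside 0.41 for HLA-J, with replicate 1 the highest in both groups and the groups overlapping.

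**Figure D1:**
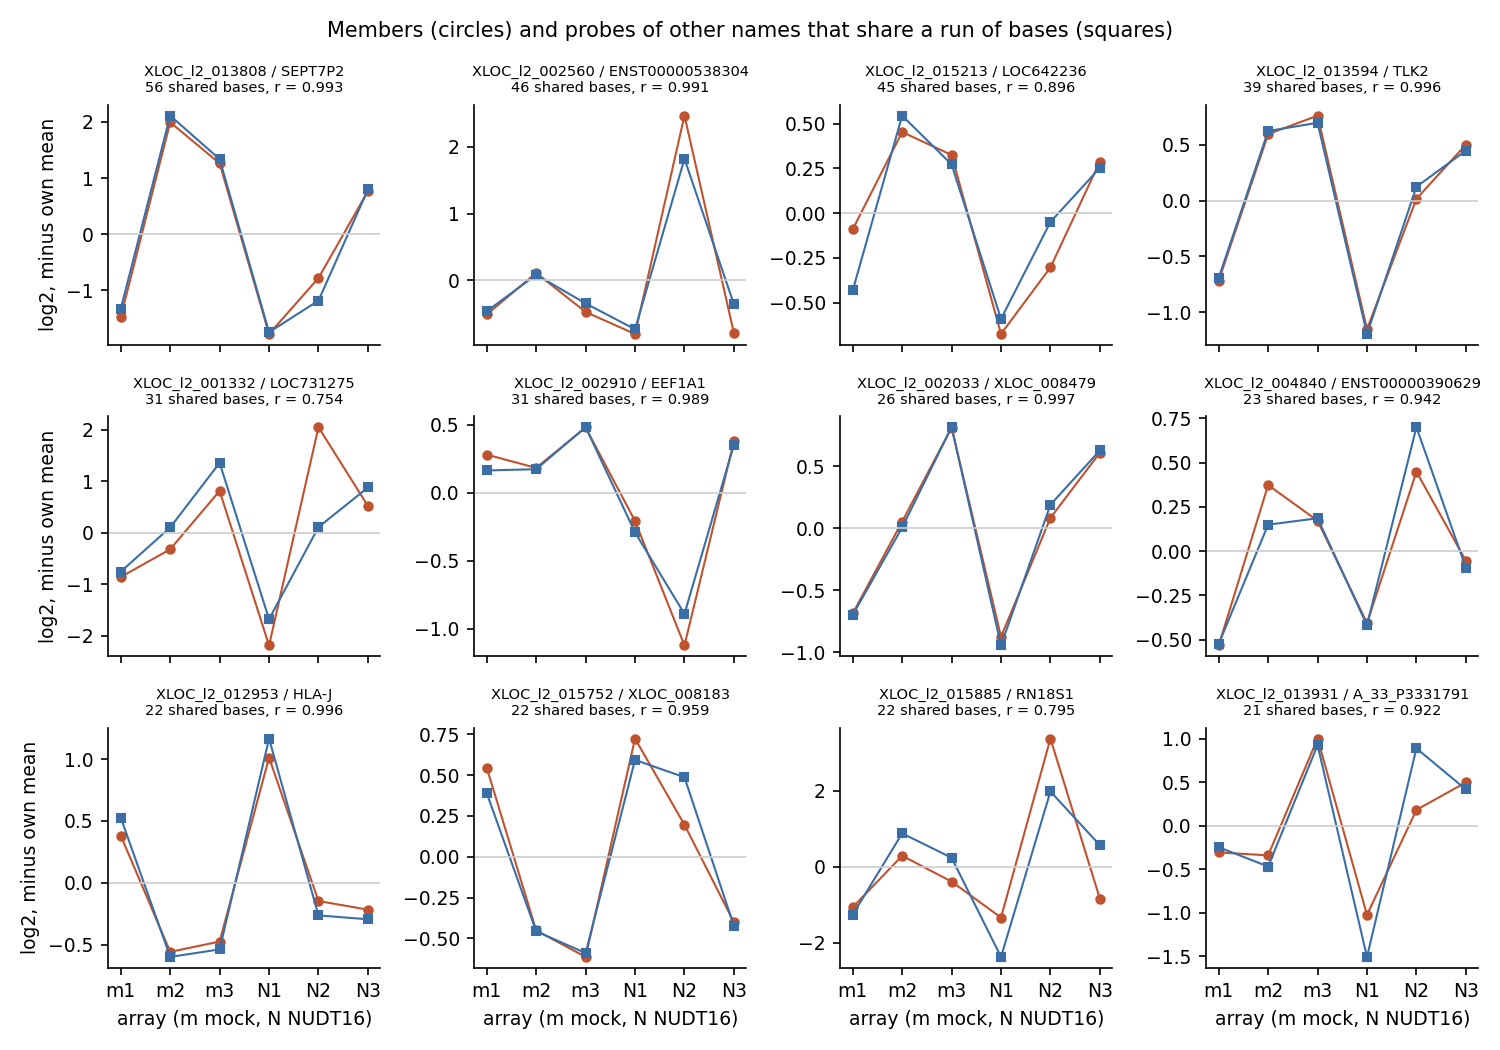
Scaled log2 signal of 12 members (circles) and of their sequence partners (squares) on the 6 arrays, each probe minus its own mean, with the shared bases and the correlation over 6 arrays above each panel. The curves of a pair nearly coincide for XLOC_l2_013808, XLOC_l2_013594 and XLOC_l2_012953 and part on NUDT16 replicate 2 for XLOC_l2_001332.

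Most members gave no measurable signal in the cap eluate. Of the 2633 probes, 651, 440 and 774 were well above background on mock replicates 1, 2 and 3, and 471, 159 and 776 on the NUDT16 replicates. NUDT16 replicate 2 was the lowest array and replicate 3 the highest in either group, so the groups overlapped. The share was 23.6% ± 6.42 (SD, n = 3) for mock and 17.8% ± 11.7 (SD, n = 3) for NUDT16, a difference of -5.81 percentage points (exact permutation test, two-sided p = 0.7, with 0.1 the smallest possible). On 0 arrays were 1663 members (63.2%), on 1 to 5 arrays 837, and on all 6 arrays 133 (5.05%), which belong to 126 loci.

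The members were detected more often than their numbered relatives and less often than the array as a whole. The member share was above that of the 9198 numbered XLOC probes on 6 of 6 arrays, by 3.13 percentage points or more, with a mean gap of 7.92 (exact permutation test flipping signs over 6 arrays, two-sided p = 0.03125, the smallest possible). It was below that of all probes on 6 of 6 arrays, with a mean gap of -18.4 percentage points and the same exact permutation p = 0.03125. On all 6 arrays were 1.86% of numbered XLOC probes, 12.6% of RefSeq noncoding probes and 19.1% of RefSeq messenger RNA probes. The 6 arrays share 1 cell line, 1 design and the same probes. The test thus measures how steady each gap was from array to array, not a spread over probes or loci.

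**Figure D2:**
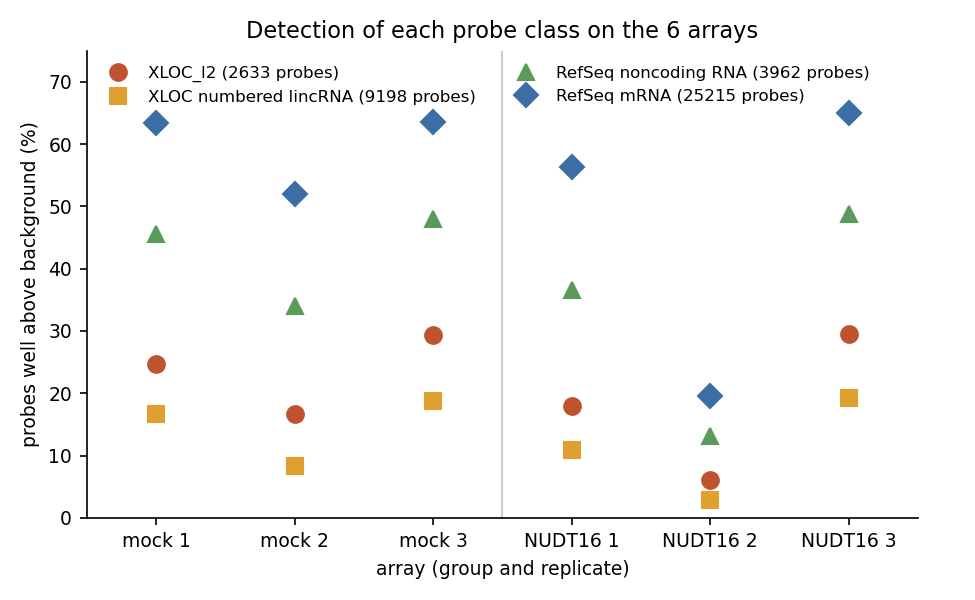
Percentage of probes well above background on each array (x axis, group and replicate) for 4 classes of probe. XLOC_l2 probes lie between 6.04% and 29.5%, above the numbered XLOC probes and below both RefSeq classes on each array, and all classes fall on NUDT16 replicate 2.

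Detection varied with features that the name does not use, given here as descriptions. Of members with a probe GC content under 40%, 21 of 998 (2.10%) reached all 6 arrays, beside 79 of 1374 (5.75%) at 40% to 50% and 33 of 261 (12.6%) at 50% or more. The part of probe composition in these shares was not tested. Of members that the array file pairs with a RefSeq accession, 6 of 58 (10.3%) reached all 6 arrays. Those described by similarity to Alu, the most common short repeat of the human genome, reached it in 5 of 44 cases (11.4%), those similar to a ribosomal protein in 3 of 4, those similar to a mitochondrial sequence in 2 of 3, those similar to a reverse transcriptase or retrovirus in 0 of 11, and those similar to a zinc finger protein in 0 of 10. Probes that span more than their own length in the genome reached all 6 arrays in 26 of 484 cases (5.37%), close to the 5.05% of all members. Whether these probes cross a splice junction was not examined. By chromosome, the most members lie on chromosomes 2 (259), 7 (233) and 4 (229), and the most that reached all 6 arrays lie on chromosome 7, with 13.

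Where a RefSeq gene lay near a member, it was mostly on the same strand. A probe for a RefSeq transcript was within 5000 bp for 354 of 2594 mapped members (13.6%), on the same strand for 285 and on the opposite strand for 69. For numbered XLOC probes it was 764 of 9145 (8.35%), with 373 on the same and 391 on the opposite strand, and both shares are given as descriptions. Among the 132 mapped members that reached all 6 arrays, 23 had such a neighbour, 20 of them on the same strand, and the neighbour itself reached all 6 arrays for 8 of 23 (34.8%). For members on 0 arrays the neighbour reached all 6 arrays in 17 of 203 cases (8.37%). Where the neighbour lies on the same strand, separate transcripts and 1 longer transcript cannot be told apart. XLOC_l2_014830, for example, overlaps the probe of FRG1B, and their scaled signals correlated at 0.995 over the 6 arrays, while XLOC_l2_005952 lies 2833 bp from PSMB6, a proteasome subunit gene on the opposite strand, with a correlation of 0.102.

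The brightest members were XLOC_l2_015885, XLOC_l2_008560, XLOC_l2_005557, XLOC_l2_011566, XLOC_l2_001984, XLOC_l2_004940, XLOC_l2_010508 and XLOC_l2_009184. Their probes are printed because they are the best measured; XLOC_l2_011566 is described in the file as similar to acidic ribosomal phosphoprotein P1 and XLOC_l2_009184 as similar to ribosomal protein L23, a protein of the large subunit.
XLOC_l2_008560: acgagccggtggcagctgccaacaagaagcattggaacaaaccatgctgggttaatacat
XLOC_l2_005557: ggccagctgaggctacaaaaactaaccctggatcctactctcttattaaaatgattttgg
XLOC_l2_011566: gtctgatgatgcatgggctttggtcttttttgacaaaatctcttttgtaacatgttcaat
XLOC_l2_001984: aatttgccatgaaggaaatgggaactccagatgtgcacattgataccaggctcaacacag
XLOC_l2_009184: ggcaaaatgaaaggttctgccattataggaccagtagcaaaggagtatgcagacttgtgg

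XLOC_l2_008560, at chr20:18485441-18485738 on the plus strand, gave 4.71, 5.52 and 4.74 for mock and 4.57, 6.83 and 4.77 for NUDT16. NUDT16 replicate 2 was its highest array in scaled signal and its lowest unscaled, at 14.64, and the groups overlapped. XLOC_l2_011566, at chr5:43348741-43348800, gave 4.79, 4.94 and 4.11 for mock and 4.50, 5.28 and 4.53 for NUDT16, and XLOC_l2_009184, at chr21:30369970-30370029, gave 4.0, 4.84 and 3.51 against 3.78, 3.80 and 3.72. The groups overlapped for both ribosomal-protein-like members. Over the 8 brightest members the differences between groups ran from -0.35 to 0.79, and 0 of them passed the test (limma, Benjamini-Hochberg adjusted p = 0.999 for XLOC_l2_015885).

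The unscaled signal shows how far NUDT16 replicate 2 stood from the others. Over the 133 members on all 6 arrays, the median unscaled log2 signal was 10.66, 9.57 and 10.29 for mock and 10.30, 6.22 and 10.83 for NUDT16, in order of replicate. NUDT16 replicate 2 was the lowest array for all but 4 of the 133 members (3.01%), as it was for all but 93 of 6582 probes (1.41%). Relative to a member's own median on the other 5 arrays, its signal there differed by -4.14 at the median. For 5 members it stayed within 1 of that median: XLOC_l2_013846, XLOC_l2_012518, XLOC_l2_012388, XLOC_l2_015938 and XLOC_l2_015885, or 3.76%, beside 1.67% of all probes on all 6 arrays.

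XLOC_l2_015885, the member with 22 bases of the 18S ribosomal RNA probe, had unscaled signals of 17.69, 17.58 and 17.70 for mock and 17.47, 17.06 and 17.81 for NUDT16, and 0 spots were marked as saturated. Its signal was thus nearly level on all 6 arrays, while the scaled value ran from 4.55 on NUDT16 replicate 1 to 9.26 on NUDT16 replicate 2. The RN18S1 probe itself gave unscaled signals of 14.02, 14.69 and 14.85 for mock and 12.95, 12.20 and 15.74 for NUDT16, lowest on NUDT16 replicate 2. XLOC_l2_015938 lies close by on the opposite strand, at chrY:10035807-10036168, and its unscaled signals were 10.05, 7.02 and 8.75 for mock and 10.28, 8.51 and 8.91 for NUDT16. Replicate 1 of either group was its highest array, and the groups overlapped. The probes of XLOC_l2_012518 and XLOC_l2_012388 are printed with it.
XLOC_l2_015938: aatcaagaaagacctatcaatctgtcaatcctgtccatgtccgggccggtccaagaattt
XLOC_l2_012518: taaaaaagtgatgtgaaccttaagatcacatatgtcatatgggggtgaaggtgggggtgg
XLOC_l2_012388: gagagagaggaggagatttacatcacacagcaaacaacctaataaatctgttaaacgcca

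**Figure D3:**
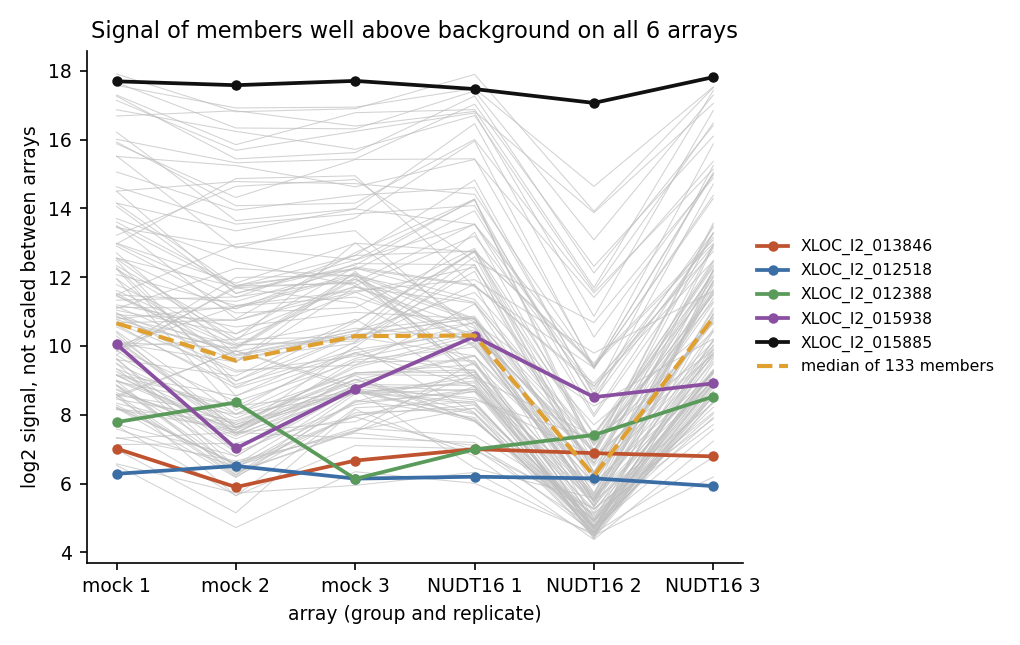
Unscaled log2 signal of the 133 members well above background on all 6 arrays (grey lines), with their median (dashed) and the 5 members whose signal on NUDT16 replicate 2 stayed within 1 of their median on the other arrays. The median falls to 6.22 on NUDT16 replicate 2, and XLOC_l2_015885 stays at 17.06.

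Of the 2633 members, 410 passed the filter for the comparison of groups, which asks that either group has the probe well above background on each of its 3 arrays. All 410 passed through the mock arrays, and on NUDT16 replicates 1, 2 and 3 they were well above background in 358, 138 and 407 cases, so 277 of the 410 were not well above background on some NUDT16 array. In the comparison of NUDT16 with mock, 0 of the 410 passed the test (limma, Benjamini-Hochberg adjusted p under 0.05), where 0.00563% of the 17765 probes tested were called. At an unadjusted p under 0.05 there was 1 member, lower with NUDT16, and 0 higher ones, beside 0.0169% and 0.0281% of all probes tested. The smallest adjusted p among the 410 was 0.999. Without NUDT16 replicate 1, 1 of 414 members passed the test, beside 0.101% of the probes tested: XLOC_l2_014821, at chr9:67333490-67333549, whose scaled signals were -10.07, -9.06 and -9.29 for mock and -9.74, -3.12 and -7.27 for NUDT16. It was well above background on NUDT16 replicates 2 and 3 and on 0 mock arrays, and it passed the filter through those NUDT16 arrays alone. Without NUDT16 replicate 1 it was at least 5.39-fold higher by the bound described for NUDT16P1 (limma, Benjamini-Hochberg adjusted p = 0.000978), while NUDT16 replicate 1 itself lay within the range of the mock arrays. The filter chose it through the arrays where it is high, so this p-value is not separate support. The bound uses the mean of NUDT16 replicates 2 and 3. Replicate 2 was the higher of them only after scaling, with unscaled signals of 4.68 and 5.49. The standard error of a member's difference had a median of 0.70 and was never under 0.56 on the log2 scale, which limits the size of change that could be called. This fit does not pair the arrays by replicate number, so spread between replicates that both groups share counts as error in it.

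The median difference between NUDT16 and mock was -0.14 over the 410 members tested and -0.11 over all 17765 probes tested. Over the 133 members on all 6 arrays it was 0.16, as it was for the 6582 probes on all 6 arrays. A difference of at least 2-fold was fitted for 4 members upward and 32 downward, or 0.976% and 7.8%, beside 1.29% and 7.05% of all probes tested. Groups did not overlap for 2 members higher with NUDT16, XLOC_l2_013783 and XLOC_l2_001875, and for 0 lower ones, where the share over all probes tested was 0.31% higher and 0.281% lower. These shares lie near the background.

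The same-numbered pairs of arrays differed from each other in direction. Of the 133 members on all 6 arrays, 30 were higher with NUDT16 in the pair of replicate 1, 90 in that of replicate 2 and 47 in that of replicate 3, with median differences of -0.21, 0.66 and -0.20. For all 6582 probes on all 6 arrays these medians were -0.11, 0.35 and 0.04. The sign was the same in the 3 pairs for 40 members, 16 higher and 24 lower (30.1%), and for 46.3% of all 6582 probes on all 6 arrays, 1774 higher and 1273 lower. Across the 133 members the correlation of the pair differences was 0.355 between replicates 1 and 3, 0.207 between 1 and 2, and -0.051 between 2 and 3.

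**Figure D4:**
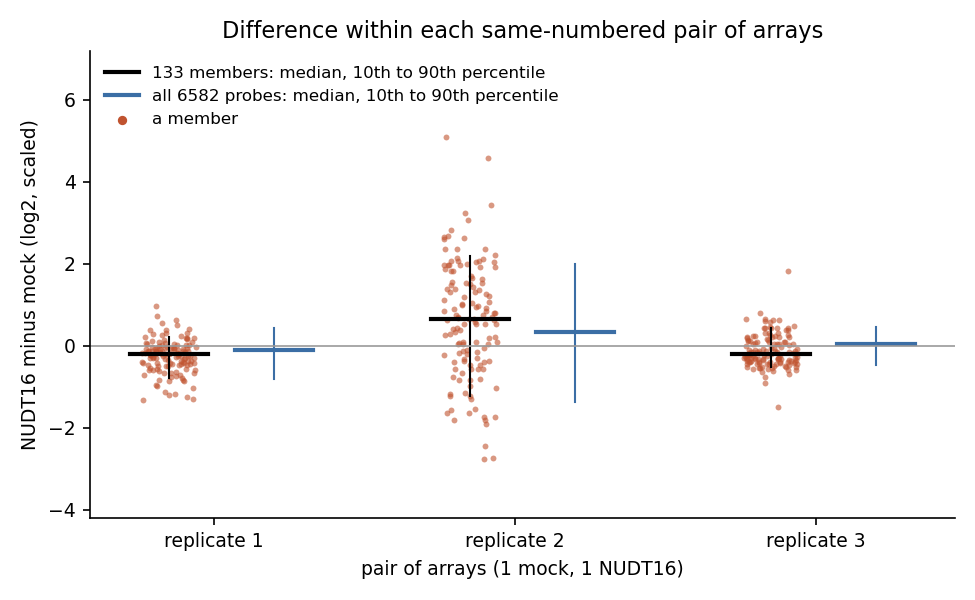
Scaled NUDT16 minus mock difference (log2, y axis) in each same-numbered pair of arrays: points are the 133 members well above background on all 6 arrays, black lines their median and 10th to 90th percentiles, blue lines the same for all 6582 such probes. The members of the replicate 2 pair spread from -1.23 to 2.20 between those percentiles, wider than in the pairs of replicates 1 and 3.

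Among members on all 6 arrays, 6 in each direction are named next, first those whose groups did not overlap and then those with the smallest unadjusted p, and their probes are shown because the comparison of groups turns on them. They are not the 6 largest differences: XLOC_l2_012388, with 1.21, XLOC_l2_011987, with -1.03, and XLOC_l2_009136, with -0.95, exceed several of them. Probes already printed are not repeated.
XLOC_l2_013783: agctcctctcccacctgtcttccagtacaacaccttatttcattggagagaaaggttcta
XLOC_l2_011204: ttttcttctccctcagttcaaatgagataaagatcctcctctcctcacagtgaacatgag
XLOC_l2_013846: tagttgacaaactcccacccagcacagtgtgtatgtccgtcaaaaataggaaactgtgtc
XLOC_l2_003758: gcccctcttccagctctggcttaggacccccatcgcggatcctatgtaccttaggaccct
XLOC_l2_015295: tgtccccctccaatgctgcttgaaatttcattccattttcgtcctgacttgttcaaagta
XLOC_l2_014711: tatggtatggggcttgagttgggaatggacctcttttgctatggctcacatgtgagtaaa
XLOC_l2_007271: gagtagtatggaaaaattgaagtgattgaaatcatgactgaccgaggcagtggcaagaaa
XLOC_l2_003021: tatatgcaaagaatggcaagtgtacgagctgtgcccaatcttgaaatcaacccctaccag

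XLOC_l2_013783, at chr7:35792273-35792332 on the minus strand, gave -0.64, -1.19 and -0.65 for mock and -0.63, -0.38 and -0.41 for NUDT16. It is the 1 member on all 6 arrays whose groups did not overlap, with mock replicate 2 the lowest array, and replicate 1 differed little between groups. Its difference was 0.35 with a standard error of 0.57. XLOC_l2_011204, at chr4:103340421-103340480 on the minus strand, gave -3.36, -5.06 and -4.67 for mock and -3.37, -3.09 and -3.87 for NUDT16, with a difference of 0.92 and a standard error of 0.65. Its replicate 1 arrays were level, so the groups overlapped.

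Several members with a higher NUDT16 mean had their highest scaled signal on NUDT16 replicate 2. XLOC_l2_015938 gave -2.81, -4.38 and -3.45 for mock and -2.64, 0.71 and -3.85 for NUDT16, and XLOC_l2_013846, at chr7:56949925-56949984, gave -5.85, -5.50 and -5.54 against -5.91, -0.92 and -5.97. In scaled signal both stood above the other 5 arrays on NUDT16 replicate 2, and on the rest the groups overlapped. Unscaled, both lay within the range of the other arrays there, at 8.51 and 6.88. Their differences were 1.62 and 1.36 with standard errors of 1.0 and 1.12. With replicates 1 and 3 alone and the pairs as a block, they were -0.0081 and -0.15. XLOC_l2_003758, at chr13:64413154-64413213, and XLOC_l2_015295, at chr9:98172824-98172883, were also highest on NUDT16 replicate 2 in scaled signal, at -1.85 and -0.62, with differences of 0.72 and 0.74. Unscaled, NUDT16 replicate 2 was the lowest array for both, at 5.95 and 7.18. XLOC_l2_015295 was higher with NUDT16 in the pairs of replicates 1, 2 and 3, by 0.30, 1.48 and 0.42.

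The 6 members that were lower with NUDT16 were lower in each of the 3 pairs, yet their groups overlapped. XLOC_l2_007271, at chr2:33861941-33862000 on the plus strand, gave -1.38, 1.56 and 1.15 for mock and -2.57, -0.89 and 0.74 for NUDT16. Replicate 1 was the lowest array of each group, and the spread between replicates exceeded the difference of -1.35 (standard error 0.95). XLOC_l2_014518, at chr8:57014182-57014241 on the minus strand, gave 0.10, 3.47 and 2.74 for mock and -1.19, 1.56 and 2.23 for NUDT16, with a difference of -1.23 (standard error 1.02). It too was lowest on replicate 1 in either group, and the groups overlapped. XLOC_l2_014711, at chr9:15017475-15017534, gave -1.67, -0.85 and -1.23 against -2.13, -2.50 and -1.66, with a difference of -0.85 (standard error 0.59), and its groups touched at mock replicate 1 and NUDT16 replicate 3. XLOC_l2_014830 and XLOC_l2_003021, at chr12:64216934-64216993, differed by -0.89 and -0.82. None of these 12 members passed the test, each with an adjusted p of 0.999 by limma with Benjamini-Hochberg adjustment.

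**Figure D5:**
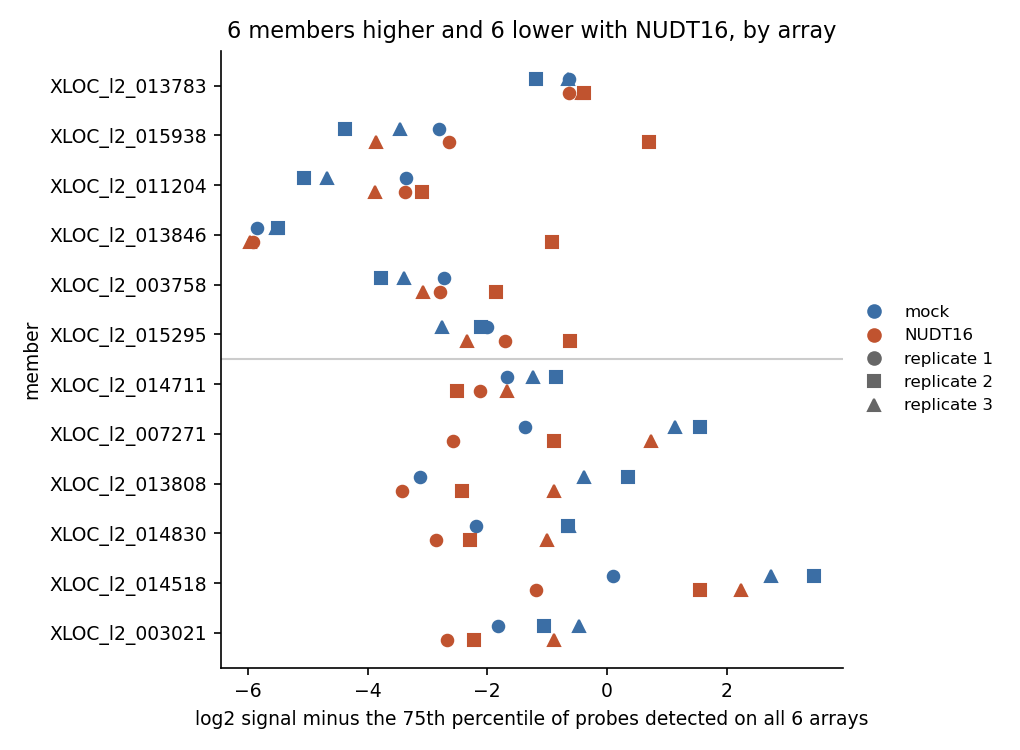
Scaled log2 signal (x axis) of the 6 members named in each direction, by groups without overlap and then smallest unadjusted p, with higher NUDT16 means above the line and lower ones below it, with colours for the groups and marker shapes for the replicates. NUDT16 replicate 2 stands apart to the right for XLOC_l2_015938 and XLOC_l2_013846, and the groups overlap for each member but XLOC_l2_013783.

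Pairing the arrays by replicate number gave smaller errors and no call. The median standard error of a member's difference was 0.37 with the block. With the block, 0 of 410 members passed the test, and the smallest adjusted p among them was 0.467 (limma, Benjamini-Hochberg). At an unadjusted p under 0.05 there were 47 members, 1 higher and 46 lower (11.2%), beside 0.816% higher and 8.94% lower of all probes tested. All 410 passed the filter through mock, which favours lower values with NUDT16. Among the 133 members on all 6 arrays there were 8, 0 higher and 8 lower (6.02%), beside 1.61% higher and 5.71% lower of the 6582 probes on all 6 arrays. Among members on all 6 arrays the smallest unadjusted p belonged to XLOC_l2_014518, XLOC_l2_009136, XLOC_l2_007271 and XLOC_l2_011987. XLOC_l2_009136, at chr21:15323443-15335073, gave -2.77, -1.45 and -0.20 for mock and -3.89, -2.27 and -1.11 for NUDT16. The NUDT16 array was the lower in each pair, while the groups overlapped, and the difference was -0.95 with a standard error of 0.30 in the blocked fit. XLOC_l2_011987, described as similar to a mitochondrial NADH dehydrogenase subunit, gave -2.79, -1.87 and -0.04 against -3.82, -3.41 and -0.55, lower in each of the 3 pairs.

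With replicates 1 and 3 alone, paired, 585 members passed the filter and 25 of them passed the test (4.27%), 6 higher and 19 lower, where 1.78% of the 22387 probes tested were called, 0.344% higher and 1.43% lower. Of the 25, 4 were well above background on all 4 arrays of that fit, as were 44 of the 398 probes called in all. The other 21 of the 25 have a background-level value on 1 or 2 of these arrays. They passed the filter only through the group in which they are higher, so their calls and directions are not separate support. The 4 are XLOC_l2_001875, XLOC_l2_000917, XLOC_l2_013189 and XLOC_l2_010558, and all 4 were below the threshold for detection on NUDT16 replicate 2. Among probes well above background on those 4 arrays, the share called was 0.948% of 422 members and 0.234% of 18769 probes. This fit scaled each array by its 75th percentile over the latter, which adds 0.10 to a NUDT16 minus mock difference of replicates 1 and 3 as computed from the scaled signals given here.
XLOC_l2_001875: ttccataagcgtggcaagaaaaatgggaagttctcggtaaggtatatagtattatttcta
XLOC_l2_000917: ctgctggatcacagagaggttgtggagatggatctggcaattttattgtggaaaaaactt
XLOC_l2_013189: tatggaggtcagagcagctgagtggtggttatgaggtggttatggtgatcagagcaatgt
XLOC_l2_010558: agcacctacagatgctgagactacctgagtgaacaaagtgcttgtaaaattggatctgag

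XLOC_l2_001875, at chr10:18943930-18943989 on the minus strand, gave -6.81, -6.26 and -7.24 for mock and -5.73, -4.10 and -6.13 for NUDT16, with a value not well above background on NUDT16 replicate 2. Its groups just failed to overlap, and the difference was 1.20 with a standard error of 0.27 over replicates 1 and 3 (limma, Benjamini-Hochberg adjusted p = 0.0253). On the scaling of that fit, its differences in the pairs of replicates 1 and 3 were 1.27 and 1.13. With so few pairs, this standard error and p-value rest mostly on the variance that limma pools over all probes tested. XLOC_l2_000917, at chr1:54441092-54441151 on the minus strand, gave -4.85, -0.76 and -1.83 for mock and -6.38, -5.72 and -2.80 for NUDT16. It was lower in each pair, with -1.52 in that of replicate 1, while replicate 1 was the lowest array of both groups and the groups overlapped. Over replicates 1 and 3 it fell by 1.14. XLOC_l2_013189, at chr6:160131858-160131917, and XLOC_l2_010558, at chr4:6678116-6678175, fell by 1.11 and 1.10 over the same arrays. Over all 6 arrays without the block, none of these 4 members passed the test, each with a limma adjusted p of 0.999.

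Loci with several probes allow a check of whether their probes tell the same story. In 7 loci, 2 probes were well above background on all 6 arrays, and their scaled signals correlated at 0.386 to 1.0 over the 6 arrays. The probes of XLOC_l2_014602 share 38 bases and correlated at 0.996, so they are not independent. The probes of XLOC_l2_010636 on chromosome 4 share 53 bases, marked in capitals, and so are not independent either.
XLOC_l2_010636, first probe: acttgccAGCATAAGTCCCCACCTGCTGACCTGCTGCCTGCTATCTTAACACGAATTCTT
XLOC_l2_010636, second probe: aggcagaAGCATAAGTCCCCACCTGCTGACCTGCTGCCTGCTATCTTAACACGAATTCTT

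They gave -0.38, -2.60 and -1.88 for mock and -0.13, -1.20 and -1.25 for NUDT16, and -0.63, -2.86 and -2.09 against -0.32, -1.46 and -1.52. Both were highest on replicate 1 of either group, with overlapping groups and a difference of 0.76 each. Of the locus's other 3 probes, 2 were detected on 0 arrays and 1 on 1 array. The probes of XLOC_l2_007767 share at most 5 bases and lie near each other, at chr2:220362985-220363044 and chr2:220363147-220363206 on the plus strand. Their differences were -0.01 and 0.61, and their correlation of 0.386 was the lowest of the 7. For XLOC_l2_004840 on chromosome 15 the differences were -0.49 and -0.01 at a correlation of 0.914.

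XLOC_l2_011204 had 4 of its 5 probes on 5 or 6 arrays, and the fifth, at chr4:103351556-103351615, on 0. Its probes on all 6 arrays differed between groups by 0.92 and 0.54, and those on 5 arrays by 0.27 and 0.01. XLOC_l2_013873, the locus with the most probes, has 13 between chr7:65837655-65837714 and chr7:66057360-66057419 on the minus strand. Of these 13, 2 reached all 6 arrays, 2 reached 5, 3 reached 4, 1 reached 3, 1 reached 1 and 4 reached 0. Its probes on all 6 arrays differed by 0.34 and 0.50 with NUDT16 at a correlation of 0.863. The other 4 of its probes that were tested, on 4 or 5 arrays, differed in the opposite direction, by -0.81, -0.04, -0.35 and -0.58, and 0 of the 6 passed the test. The probes on all 6 arrays were higher with NUDT16 only in the pair of replicate 2, by 1.36 and 2.07. With replicates 1 and 3 alone and the pairs as a block, their differences were -0.07 and -0.19. In that fit the other 4 gave -0.39, -0.37, -0.83 and -0.90, and probes tested in it alone gave 0.28 and -0.08.

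Promoters were searched because a cap marks the start of a transcript. A run of at least 25 bases of the probe, on either strand, was looked for in RefSeq promoter windows of 300 bases (GRCh38.p14), which reach a little past the start of each gene. It was found for 40 members (1.52%), beside 1.57% of numbered XLOC probes and 0.639% of RefSeq messenger RNA probes. Of the 40, 4 were members on all 6 arrays, matching MIR646HG, LOC124900998, LINC03006 and LINC03011. The windows of LINC03006 (chr7:65770761-65771060, minus strand) and LINC03011 (chr7:66493382-66493681, plus strand), on GRCh38.p14, are printed with the run of 28 or 60 bases in capitals that XLOC_l2_013846 or a probe of XLOC_l2_013873 holds on the opposite strand.
LINC03006: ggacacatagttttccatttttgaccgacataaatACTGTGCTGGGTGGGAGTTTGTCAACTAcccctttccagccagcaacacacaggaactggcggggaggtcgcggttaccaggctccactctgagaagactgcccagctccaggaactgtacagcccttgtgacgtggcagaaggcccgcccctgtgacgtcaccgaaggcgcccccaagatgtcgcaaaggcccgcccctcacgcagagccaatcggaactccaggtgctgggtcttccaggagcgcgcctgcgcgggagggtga
LINC03011: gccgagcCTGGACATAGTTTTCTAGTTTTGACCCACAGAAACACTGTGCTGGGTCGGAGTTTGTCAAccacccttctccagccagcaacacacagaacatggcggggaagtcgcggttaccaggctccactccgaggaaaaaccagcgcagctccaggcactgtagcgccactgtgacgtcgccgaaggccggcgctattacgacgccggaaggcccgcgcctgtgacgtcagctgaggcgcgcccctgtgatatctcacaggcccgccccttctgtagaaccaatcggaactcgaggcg

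The probe of XLOC_l2_013873 that matches LINC03011 gave -5.53, -4.74 and -4.74 for mock and -5.80, -2.67 and -5.05 for NUDT16. In scaled signal it was highest on NUDT16 replicate 2, as XLOC_l2_013846 was, and on the other arrays the groups overlapped. Unscaled, NUDT16 replicate 2 was its lowest array, at 5.14. This probe and that of XLOC_l2_013846 resemble each other in sequence, so they are not separate observations. A match says only that the letters occur in the window, and transcription from these starts was not examined.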

How the data were processed

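The arrays were read with Agilent Feature Extraction 10.7.3.1 (design 039494, hg19), per the file headers; the deposited values are linear fluorescence intensity per spot, background subtracted, with a surrogate for spots not above background, and not normalized between arrays. The submitters' processing notes name Agilent Feature Extraction and limma. The value table that the authors deposited holds log2 values; how it was made is not given in the sources used here, and it served as an alternative.

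Control and outlier spots were left out, spots of a probe were averaged, and log2 intensity was shifted by the 75th percentile over probes well above background (over 50% of usable spots) on all 6 arrays. Probes that passed on each of the 3 arrays of either group were tested in limma 3.58.1 (R 4.3.3) with Benjamini-Hochberg adjustment at 0.05 over all of them and no block. The fits were tested on simulated data. Precision is limited by the number of arrays, 3 per group. Same-numbered arrays shared a slide and a scan, and over 17765 probes the correlation of their deviations from the group mean was 0.84 for replicate 1, 0.39 for replicate 2 and 0.77 for replicate 3, so the numbers pair the arrays; slide, scan and preparation cannot be told apart. Alternatives were other background corrections, scalings, filters, variance models, a replicate block and arrays left out. Members named were the 8 brightest, 6 per direction among those on all 6 arrays (first groups without overlap, then smallest p), loci with 2 probes on all 6 arrays, and the 4 smallest p in the blocked fit; others were chosen after their values were seen. Members, lists and rules were chosen with earlier results of these data known. Probe sequences are those of the array files; promoter windows are RefSeq's.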

Additional observations from a re-analysis of the deposited data

How the results depend on the processing

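The count of members called was 0 in 18 of 20 other settings. Leaving out each array gave 0 to 1, and replicates 1 and 3 with the replicate block gave 25. Of those 25, 21 passed the filter only through the group in which they are higher. The block over all 6 arrays changed no other call. The median difference of the members, -0.14, became 0.47 with normexp, -0.82 with a median shift, -1.14 without scaling and 1.07 without a filter, where the median over all probes tested moved to 0.47, -0.78, -1.10 and 0.73, and ran from -0.32 to 0.25 with each array left out. Members on all 6 arrays numbered 380 by the flag for positive and significant spots, and 133 to 357 when each array was left out, the highest without NUDT16 replicate 2. Of 416 values for named members under these settings, 31 changed sign, none of them past the test's threshold; 8 of 21 members never did, and the cause of the changes was not tested. Without scaling the differences were -0.64 for XLOC_l2_013783, -0.076 and -0.45 for XLOC_l2_011204, -0.28 for XLOC_l2_003758, -0.26 for XLOC_l2_015295, -0.24 for both probes of XLOC_l2_010636 and -0.38 for the second probe of XLOC_l2_007767; with a median shift they were -0.32 for XLOC_l2_013783, -0.14 for XLOC_l2_011204 and -0.064 for XLOC_l2_007767. With replicates 1 and 3 they were -0.0081 for XLOC_l2_015938, -0.15 for XLOC_l2_013846, -0.0055 for XLOC_l2_007767 and 0.053 for XLOC_l2_004840. The probes near 0, of XLOC_l2_004840 and XLOC_l2_007767, gave 0.34 and 0.41 with normexp, 0.11 and 0.12 with quantile normalization, and 0.13 and 0.27 from the deposited table, and XLOC_l2_004840 gave 0.0022 with the percentile over all probes. With each array left out, XLOC_l2_013846 ran from -0.29 (without NUDT16 replicate 2) to 2.21, XLOC_l2_004840 from -1.01 to 0.040 and from -0.28 to 0.20, and XLOC_l2_007767 from -0.32 to 0.30. The filter on all 6 arrays with the block was added after the data were seen. Signal near background limits NUDT16 replicate 2 most.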
